A study of Homo sapiens with 8 samples.

Results

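When a BET degrader and an mTOR inhibitor were given together to cholangiocarcinoma (CCA) cells, some genes were expressed above or below the level that the effects of the single drugs add up to. This departure from additivity was taken per gene and cell line on the log2(TPM + 1) scale, as the combination minus BETp minus mTORi plus vehicle. TPM corrects a transcript's abundance for gene length and scales each library to 1 fixed total. A departure of 0 means that the fold changes of both drugs multiply, a negative value means less transcript than that, and a positive value means more. All 8 libraries of the series entered the contrast, and 16060 of 56269 genes were kept because they reached 1 TPM in at least 2 libraries.

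The lines were SNU1079 and SSP25, both human CCA lines that the labels call wild type, grown for 48 hours. The study's own sequencing nevertheless found IDH1 and ARID1A mutations in SNU1079. BETp + mTORi, called the combination, paired both drugs at doses that the labels do not repeat. BETp was 40 nM ARV825, which brings the BET family to cereblon, part of a ubiquitin ligase, for degradation. mTORi was 50 nM AZD8055, an inhibitor of the mTOR kinase, and vehicle was 0.01% DMSO. Each line had 1 library per treatment, so the 2 lines were the only replicates (n = 2) and p-values measure the spread between them, including real differences between lines. Sequencing depth cannot be read from TPM. The number of genes at 1 TPM or more ran from 13308 to 14526 over the libraries. Of 22 biliary epithelial markers, 13 were at 1 TPM or more in all 8 libraries, while hepatocyte markers summed to 22.6 to 69.7 TPM in SNU1079 and 0.94 to 1.83 TPM in SSP25. Endothelial markers summed to 0.97 to 1.38 TPM in SNU1079 and 2.03 to 6.01 TPM in SSP25. Of 12 fibroblast and 12 immune markers, 1 each was at 1 TPM or more in all libraries. Fibroblast markers summed to 350 TPM in the combination, 603 in BETp, 655 in mTORi and 1060 in vehicle in SNU1079, and to 43.0 to 98.0 TPM in SSP25. Immune markers summed to 77.7 to 99.4 TPM in SNU1079 and 170 to 240 TPM in SSP25, and the part of these markers in the results was not tested.

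BET proteins bind acetylated histones and help RNA polymerase II to leave promoters and elongate. The mTOR kinase reads nutrients and growth factors and drives protein synthesis, ribosome production and cell growth. Cells commonly enter S phase and mitosis only when growth signals persist. The transcripts of mitosis and DNA replication rise and fall in waves under the control of E2F factors and of the DREAM and MuvB complexes. Their level in a culture therefore follows how many cells are cycling. In bulk RNA, fewer cycling cells and less transcript per cycling cell cannot be told apart.

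The clearest shared departure was in mitosis genes, nearly all of which lay below the additive level in both lines. Of 40 mitosis genes, 39 had a departure below 0 in both lines and 0 had one above 0 in both. Across all genes kept, 25.2% lay below 0 in both lines and 22.6% above 0 in both. Genes of a list come from the same libraries, 1 per line and treatment, and are not independent replicates. A count of members therefore does not measure how often the departure was repeated. The mitosis median was -0.88 in SNU1079 and -0.31 in SSP25, against -0.04 and 0.02 over all genes. Of 42 DNA replication genes, 26 lay below 0 in both lines, 0 above and 16 had opposite signs, with medians of -0.63 in SNU1079 and -0.11 in SSP25. The list of G1 cyclins and CDK inhibitors had medians on opposite sides of 0, at -0.125 in SNU1079 and 0.113 in SSP25. All 40 mitosis genes departed by -0.5 or lower in SNU1079, and 8 did so in SSP25. Among mitosis genes 8, and among replication genes 3, departed by at least 0.5 below additivity in both lines, a size that 1.36% of all genes reached in that direction.

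No single gene was called. In limma's moderated test with Benjamini-Hochberg adjustment over 16060 genes, 0 genes lay above additivity and 0 below at an adjusted p under 0.05, a share of 0% each way. At an unadjusted p under 0.05 there were 147 genes above (0.915%) and 175 below (1.09%). Robust limma without an intensity trend called 1 gene above and 0 below, and the fit to the per-line departures alone called 0 each way. Gene departures below are therefore values, not calls, and where no error is printed they rest on 1 value per line.

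To show what the mitosis genes share outside the expression data, promoters of 3 members with departures of -0.5 or lower in both lines are printed (RefSeq, GRCh38.p14, 250 bases before to 50 after the start of the gene, 5′ to 3′ on the gene's strand). Capitals mark TTTGAA, the cell-cycle homology region through which MuvB complexes bind, and CCAAT, the site of NF-Y, in either orientation. Of the 8 mitosis genes at -0.5 or lower in both lines, 5 held TTTGAA in this window, KIF20A and SGO1 held none, and BIRC5 was not matched. The printed promoters are SPC25 (chr2:168890381-168890680, minus strand), CCNB2 (chr15:59104896-59105195, plus strand) and CDC20 (chr1:43358731-43359030, plus strand).
SPC25: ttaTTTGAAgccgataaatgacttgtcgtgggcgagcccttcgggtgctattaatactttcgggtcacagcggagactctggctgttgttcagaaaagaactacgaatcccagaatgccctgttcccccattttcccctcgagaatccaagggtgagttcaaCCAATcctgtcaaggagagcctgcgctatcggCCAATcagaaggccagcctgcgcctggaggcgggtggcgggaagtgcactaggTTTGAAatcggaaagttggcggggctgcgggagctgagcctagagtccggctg
CCNB2: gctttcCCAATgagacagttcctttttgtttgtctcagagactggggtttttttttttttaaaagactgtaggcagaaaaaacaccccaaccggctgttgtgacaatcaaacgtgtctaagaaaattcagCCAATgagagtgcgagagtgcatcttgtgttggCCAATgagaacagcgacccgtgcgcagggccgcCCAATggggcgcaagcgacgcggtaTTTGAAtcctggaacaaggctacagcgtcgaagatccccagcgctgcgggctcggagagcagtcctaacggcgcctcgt
CDC20: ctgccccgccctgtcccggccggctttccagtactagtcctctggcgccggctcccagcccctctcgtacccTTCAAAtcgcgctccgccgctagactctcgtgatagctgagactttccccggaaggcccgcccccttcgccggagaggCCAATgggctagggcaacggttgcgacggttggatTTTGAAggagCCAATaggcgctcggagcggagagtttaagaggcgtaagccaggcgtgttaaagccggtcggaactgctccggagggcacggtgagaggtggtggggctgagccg
TTTGAA was found on either strand in 26 of 35 mitosis promoters matched by symbol (74.3%), in 1 of 35 replication promoters (2.86%) and in 15.4% of all 27305 promoters. CCAAT was found in 29 of the 35 mitosis promoters (82.9%), in 20 of the 35 replication promoters (57.1%) and in 35.7% of all. These motifs were chosen after the cell-cycle genes had been seen, and a match is a description of the letters, not a site of binding.

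The route to the negative departure differed between the lines. In SNU1079 the median mitosis gene was -0.23 from vehicle with the combination, -0.12 with BETp and 0.72 with mTORi. All 40 mitosis genes were highest of the 4 libraries in mTORi, and 34 were lowest in the combination. In SSP25 the medians were -1.27 with the combination, -0.43 with BETp and -0.56 with mTORi, and all 40 genes were lowest in the combination. The sum of the single drugs was thus 0.59 in SNU1079 and -0.97 in SSP25, and the combination lay under it in both.

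**Figure D1:**
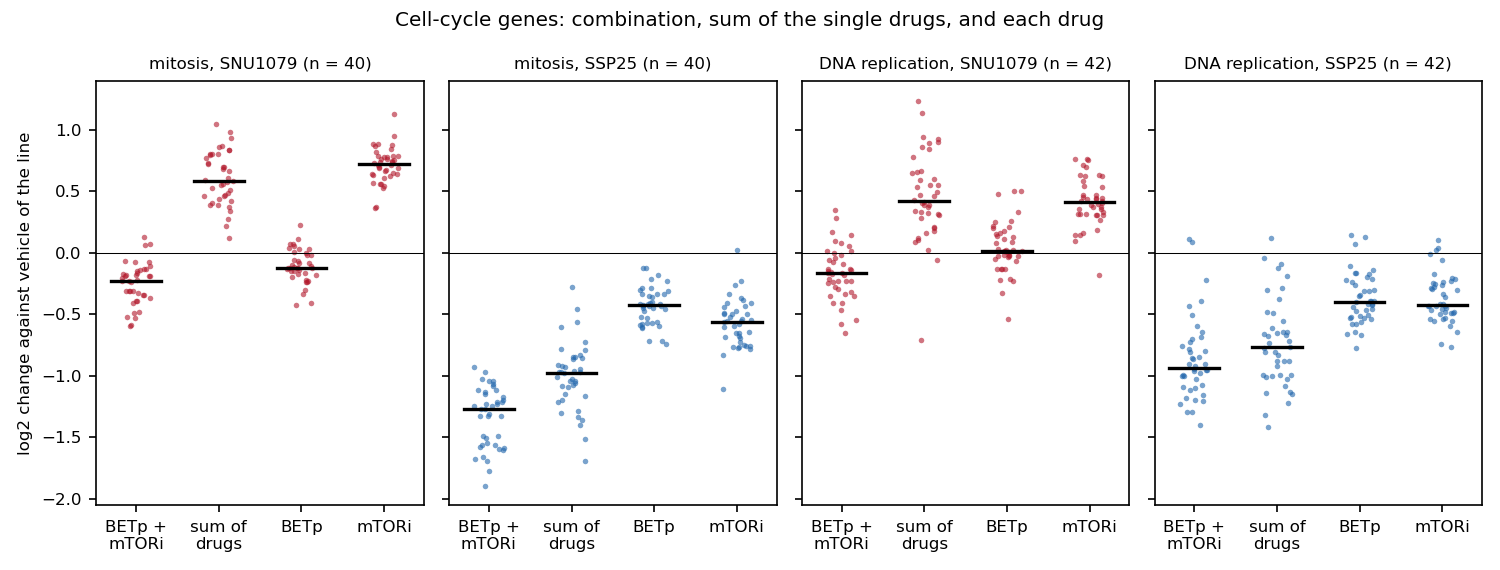
Log2 change against vehicle of the same line for 40 mitosis genes and 42 DNA replication genes. Each point is a gene, the bar is the median, and the columns hold the combination, the sum of the BETp and mTORi changes, BETp and mTORi. The combination median lies under the sum in all 4 panels, at -0.23 against 0.59 for mitosis in SNU1079 and at -1.27 against -0.97 in SSP25.

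Summed over the mitosis list, TPM were 1289 in the combination, 1417 in BETp, 2594 in mTORi and 1516 in vehicle in SNU1079. In SSP25 the sums were 893 in the combination, 1755 in BETp, 1582 in mTORi and 2396 in vehicle. The SNU1079 mTORi library and the SSP25 vehicle library therefore stood highest in their lines. With SNU1079 mTORi left out, the mean mitosis departure had a median of -0.20, against -0.60 with all libraries, and 38 of 40 genes stayed below 0. The median was -0.13 without SNU1079 vehicle (35 of 40 below 0), -0.30 without the SSP25 combination, -0.36 without SSP25 BETp, -1.02 without SSP25 mTORi and -1.06 without SSP25 vehicle. Its sign was the same whichever library was left out, but its size was not settled by these libraries.

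For replication genes the median of the fitted departure was -0.35 with all libraries. It was -0.06 without SNU1079 vehicle, where 26 of 42 genes lay below 0, -0.13 without SNU1079 mTORi (35 below 0) and -0.18 without the SSP25 combination (39 below 0). It was -0.58 without SSP25 mTORi and -0.67 without SSP25 vehicle, with all 42 below 0 in each.

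SPC25, a subunit of the NDC80 complex that ties kinetochores to microtubules (chr2:169690642-169769881; this and the gene positions that follow are on GRCh37), had the largest shared departure of the mitosis list. In SNU1079 it was at 10.8 TPM in the combination, 12.6 in BETp, 22.6 in mTORi and 14.2 in vehicle. In SSP25 it was at 6.05 TPM in the combination, 13.3 in BETp, 16.9 in mTORi and 16.6 in vehicle. The combination was the lowest library in each line, where additivity gave 20.1 TPM in SNU1079 and 13.5 TPM in SSP25. The departures were -0.83 and -1.04 (mean -0.94 ± 0.34, model SE, 95% interval -1.73 to -0.14, adjusted p = 1 by limma).

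CDC20, the activator of the anaphase-promoting complex (chr1:43824652-43828874), was chosen after its values were seen and had unlike profiles in the lines. In SNU1079 it was at 60.1 TPM in the combination, 66.7 in BETp, 106 in mTORi and 63.5 in vehicle. The level in SSP25 was 59.4 TPM in the combination, 140 in BETp, 107 in mTORi and 177 in vehicle. The combination was close to BETp and vehicle in SNU1079 and far under all other libraries in SSP25, with departures of -0.88 and -0.51 (mean -0.69 ± 0.51, 95% interval -1.89 to 0.51).

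The kinesins KIF20A and KIF18B, which act on spindle microtubules, the B-type cyclin CCNB2, the cohesin protector SGO1, the separase ESPL1 and the survivin gene BIRC5 made up the rest of the 8 mitosis genes, of which CCNB2, SGO1 and ESPL1 are named for that reason alone. Their departures ran from -0.59 to -1.03 in SNU1079 and from -0.51 to -0.64 in SSP25. The proliferation marker MKI67, also picked outside the naming rule, was at 11.8 TPM in the combination, 17.5 in BETp, 23 in mTORi and 17.5 in vehicle in SNU1079. SSP25 had 10.6 TPM in the combination, 22.2 in BETp, 15.6 in mTORi and 24.2 in vehicle (departures -0.91 and -0.40). KIF14, at -0.64 and 0.04, was the mitosis gene that did not lie below 0 in both lines.

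Among replication genes, LIG1, the ligase that joins Okazaki fragments (chr19:48618702-48673860), lay below additivity in both lines. It was at 24.7 TPM in the combination, 31.4 in BETp, 39.8 in mTORi and 31.7 in vehicle in SNU1079. It was at 5.1 TPM in the combination, 9.72 in BETp, 11.7 in mTORi and 10.8 in vehicle in SSP25. In each line the combination was the lowest library, by the wider margin in SSP25. Its departures were -0.66 and -0.91 (mean -0.79 ± 0.24, 95% interval -1.35 to -0.22, adjusted p = 1 by limma).

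GINS4, a subunit of the replicative helicase, departed by -0.79 in SNU1079 and -0.94 in SSP25, and RFC3, a clamp loader subunit, by -0.79 and -0.56. Of the 42 replication genes 16 had opposite signs in the lines, against 48.1% of all genes kept. The 16 include CCNE2, CDC6 and CDT1, named after their values were seen. The cyclin gene CCNE2 departed by -1.39 in SNU1079 and 0.33 in SSP25. CDC6 and CDT1, which license origins, departed by -0.57 and -0.39 in SNU1079 and by 0.19 and 0.20 in SSP25.

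**Figure D2:**
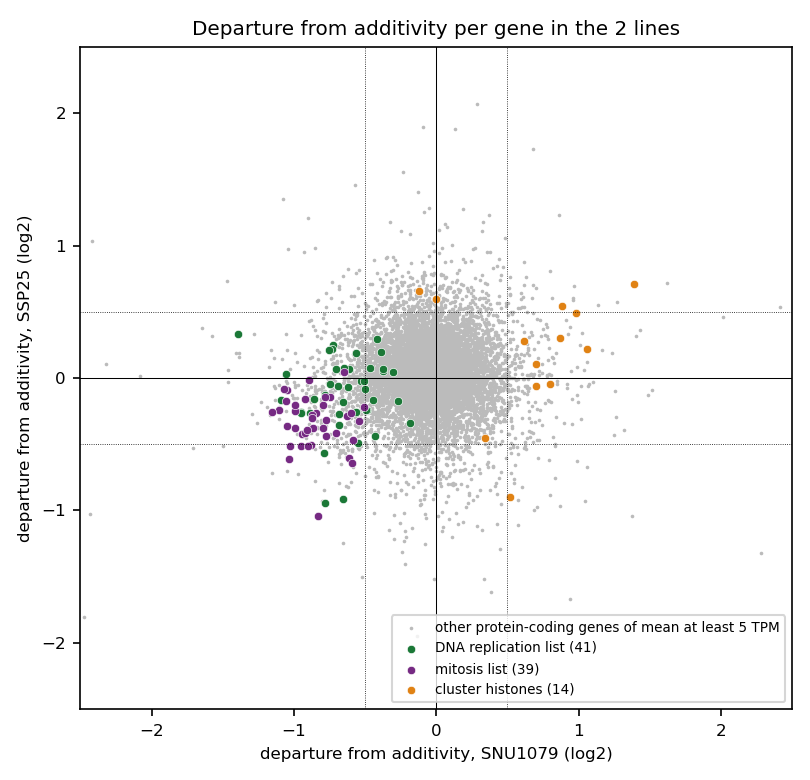
Departure from additivity in SNU1079 (x axis, log2) against SSP25 (y axis, log2) for 10005 protein-coding genes with a mean of at least 5 TPM, of which 10 fall outside the axes. Dotted lines mark 0.5 in size; the genes as a whole show little relation between lines (r = 0.023), while the mitosis genes lie to the left of 0 and almost all below it.

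Beyond the mitosis and replication lists the lines had little in common. Across all 16060 genes the departures of the lines, which share no library, had a Pearson r of 0.006 and a Spearman rho of 0.022 across genes, which are not independent replicates. The value was 0.002 without the mitosis and replication genes, and 0.091 for the 1400 genes of at least 100 TPM on average. For comparison, the change of the combination against vehicle had an r of 0.262 between lines, that of BETp 0.191 and that of mTORi 0.031. The spread of departures over genes was similar in the lines (SD 0.489 in SNU1079 and 0.473 in SSP25) and was smaller at higher expression, at 0.213 and 0.211 for genes of at least 100 TPM. The signs matched in 47.8% of genes, with 22.6% above 0 in both lines and 25.2% below, and were opposite in 48.1%. Counts given for the lists below are to be read beside these shares.

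A departure of at least 1 above additivity in both lines was seen in 39 genes (0.243%) and of at least 1 below in 37 genes (0.23%). At 0.5 there were 211 genes above (1.31%) and 219 below. Most of these were low: at a mean of 5 TPM or more, 59 genes remained above and 77 below at 0.5, and 4 and 7 at 1. Just inside the 0.5 limit above additivity were IGF1R and ZNF362 (0.503 and 0.502) and just outside SOCS4 and ZNF227 (0.499 and 0.496). Below additivity CDC20 and SLC26A6 (-0.505 and -0.50) were inside and ZWINT and PBK (-0.497 and -0.494) outside.

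The log scale has a floor that additivity does not respect. In 393 genes in SNU1079 and 452 in SSP25, the single-drug changes added up to a level below 0 TPM, which the combination could not reach. Of the 39 genes at least 1 above additivity in both lines, 30 were of this kind in at least 1 line, against 5 of the 59 genes above 0.5 with a mean of 5 TPM or more. The gene of smallest adjusted p, CTD-2224J9.4, was of this kind: it was listed at 0 in the combination, BETp and mTORi libraries of both lines, against 11.8 TPM in SNU1079 vehicle and 11.2 TPM in SSP25 vehicle. Its departures of 3.68 and 3.61 (adjusted p = 0.066, limma) arose with the combination at the same value as each drug alone.

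The 136 genes with a mean of at least 5 TPM and a shared departure of at least 0.5 were sorted by what each drug did alone, as a mean of the lines. Above additivity, 41 of 59 lay below vehicle with both drugs, and the combination was below vehicle in 32 of these and above it in 9. In 11 the drugs had opposite signs, and 2 lay above vehicle with both drugs and further above with the pair. In 5 the mean of each drug was within 0.25 of vehicle, which held in each line by itself for 0 of them. Below additivity, 30 of 77 lay above vehicle with both drugs, and the pair was above vehicle in 20 of these and below it in 10. In 22 the mean of each drug was within 0.25 of vehicle, which held in each line by itself for 2 of them, in 21 the drugs had opposite signs, and 4 lay below vehicle with both and further below with the pair. The departure and the single-drug changes share the vehicle libraries, so a deviating vehicle library and a departure cannot be told apart in the 41 and the 30. Of the 41, 25 were protein-coding, and of the 30, 15 were. The 30 also hold several U1 snRNA entries, such as RNU1-1 and RNU1-2, with the same values in all 8 libraries. These entries repeat the same signal, and they are among the 20 with the pair above vehicle. Of the 77, 11 were mitosis or replication genes. Of these, 4 were among the 22, but their mTORi changes passed 0.25 in SNU1079, as with CDC20 at 0.73 in SNU1079 and -0.72 in SSP25.

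SDF2L1, an endoplasmic reticulum chaperone subunit, was 1 of the 2 genes within 0.25 of vehicle with each drug in each line. It was at 13.2 TPM in the combination, 22.7 in BETp, 20.2 in mTORi and 23.5 in vehicle in SNU1079. It was at 21.7 TPM in the combination, 32.2 in BETp, 32.7 in mTORi and 33.7 in vehicle in SSP25. The 3 other libraries of each line lay together and the combination under them, with departures of -0.53 and -0.51 (mean -0.52 ± 0.17, 95% interval -0.92 to -0.12, adjusted p = 1 by limma).

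Calreticulin, CALR, a chaperone of the same compartment, departed by -0.34 in each line and CRELD2 by -0.24 and -0.46. Of 25 chaperone genes of the endoplasmic reticulum, 14 lay below 0 in both lines and 4 above, with medians of -0.11 and -0.09. SEL1L, which carries misfolded proteins out of that compartment, went the other way at 0.47 and 0.42.

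ACTA2, smooth muscle actin (chr10:90694831-90751096), was close to the reverse case, but its mTORi change in SSP25, -0.26, was outside the 0.25 limit. It was at 75.8 TPM in the combination, 54.1 in BETp, 54.3 in mTORi and 55.8 in vehicle in SNU1079. In SSP25 it was at 3.55 TPM in the combination, 2.51 in BETp, 1.91 in mTORi and 2.48 in vehicle. The combination was the highest library in each line, with departures of 0.52 and 0.63 (mean 0.57 ± 0.19, 95% interval 0.13 to 1.02, adjusted p = 1 by limma), although ACTA2 was low in SSP25. Of 29 mesenchymal and matrix genes, 10 lay below 0 in both lines and 4 above, with medians of -0.05 and -0.15.

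Cluster histone genes had positive medians but were divided. These genes encode the histones made mainly in S phase, and their median change against vehicle with BETp alone was 1.05 in SNU1079 and 1.09 in SSP25. The median replication gene changed by 0.018 and -0.397 with BETp in these lines. Whether the histone change reflects S phase was not tested. Of 33 histone genes measured of 60 listed, 13 lay above 0 in both lines, 4 below and 15 apart, with medians of 0.36 in SNU1079 and 0.22 in SSP25. Over all genes kept, 22.6% lay above 0 in both lines, 25.2% below and 48.1% apart. The linker histone gene HIST1H1C was at 334 TPM in the combination, 299 in BETp, 43.8 in mTORi and 72.7 in vehicle in SNU1079. SSP25 libraries held 208 TPM in the combination, 146 in BETp, 40.9 in mTORi and 42.2 in vehicle. The mTORi library was the lowest in each line, yet mTORi on top of BETp went with the highest level, for departures of 0.88 and 0.55 (mean 0.71 ± 0.29, 95% interval 0.04 to 1.39, adjusted p = 1 by limma).

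The histone H2B gene HIST1H2BD was close to its BETp level in SNU1079, at 59.1 TPM in the combination, 61.9 in BETp, 12.3 in mTORi and 26.5 in vehicle. In SSP25 it was highest in the combination, at 115 TPM, with 86.5 in BETp, 21.2 in mTORi and 22.6 in vehicle, and the departures were 0.98 and 0.49. HIST1H2AD, named after its values were seen, at 3.75 TPM in the SNU1079 combination and 7.94 TPM in the SSP25 combination, was listed at 0 in BETp of both lines, and its departures of 1.90 and 2.25 rest on low values. The histone median of 0.30 became 0.05 without SNU1079 mTORi (15 of 33 below 0), 0.07 without the SSP25 combination, 0.10 without SNU1079 vehicle, 0.15 without SSP25 BETp and 0.47 without SSP25 vehicle. Near-identical copies could not be separated: HIST2H2AA4 departed by 1.38 in SNU1079 and -1.04 in SSP25, and its sum with HIST2H2AA3 by 0.77 and -0.44.

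**Figure D3:**
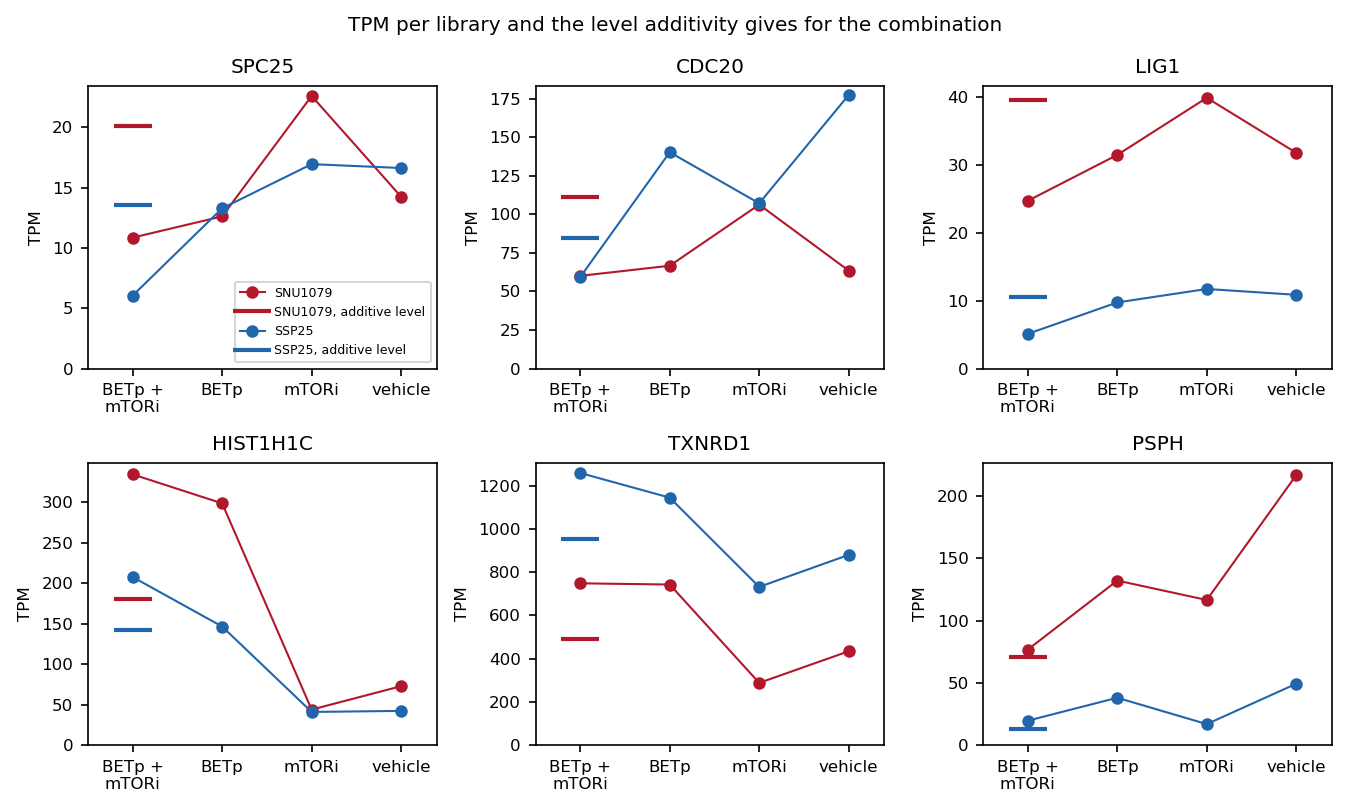
TPM (y axis) of 6 genes in the combination, BETp, mTORi and vehicle libraries (x axis) of each line, 1 library per point, with a horizontal mark at the level additivity gives for the combination. SPC25, CDC20 and LIG1 lie under their marks in both lines, HIST1H1C and TXNRD1 above them, and PSPH close to its mark in SNU1079 (76.7 TPM against 70.9) and above it in SSP25 (19.6 against 12.8).

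TXNRD1, thioredoxin reductase and a target of the oxidant sensor NRF2 (chr12:104609557-104744085, with EID3 overlapping it on the same strand), had the same order of BETp over mTORi in both lines. It was at 748 TPM in the combination, 742 in BETp, 287 in mTORi and 433 in vehicle in SNU1079. The level in SSP25 was 1258 TPM in the combination, 1144 in BETp, 731 in mTORi and 879 in vehicle. The combination equalled or passed BETp although mTORi alone was the lowest library, for departures of 0.60 and 0.40 (mean 0.50 ± 0.24, 95% interval -0.06 to 1.06, adjusted p = 1 by limma). The NRF2 target FTL, the ferritin light chain, lay on the same side (0.35 and 0.30). Over the 32 NRF2 targets 10 were above 0 in both lines and 3 below, against 22.6% and 25.2% of all genes, with medians of 0.09 and 0.10.

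The study singled out serine, glycine and one-carbon (SGOC) metabolism, which supplies serine and methyl and formyl groups for nucleotides. Its case also rests on protein, metabolite, histone acetylation and PSAT1 knockdown data, which were not examined here. For this pathway no common departure was measured: of 26 SGOC genes 6 lay above 0 in both lines, 7 below and 13 apart, with medians of -0.12 in SNU1079 and 0.06 in SSP25. These counts lie near the shares over all genes, which were 22.6% above, 25.2% below and 48.1% apart. As the study chose this pathway on these samples, the list is not independent evidence of a direction. Medians against vehicle were -0.39 with the combination, -0.11 with BETp and -0.15 with mTORi in SNU1079, and -0.56 with the combination, -0.28 with BETp and -0.38 with mTORi in SSP25.

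PSAT1, the serine synthesis transaminase (chr9:80912041-80945009), was at 49.3 TPM in the combination, 98.5 in BETp, 109 in mTORi and 185 in vehicle in SNU1079. In SSP25 it was at 67.8 TPM in the combination, 179 in BETp, 67.1 in mTORi and 254 in vehicle. The combination was the lowest library in SNU1079 and level with mTORi in SSP25, and the departures of -0.23 and 0.52 went apart (mean 0.14, 95% interval -0.93 to 1.22).

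PSPH, the phosphatase of the final step, departed by 0.11 and 0.57 (mean 0.34, 95% interval -0.38 to 1.06). PHGDH, the first enzyme of the pathway, was near absent as transcript in SNU1079, at 0.08 to 0.24 TPM. The study reports a stepwise fall of PHGDH and PSAT1 with the single drugs and then the pair, in RNA and in protein. It blotted the protein in SNU1079. How the transcript values here relate to those reports was not tested. The level in SSP25 was 18.5 TPM in the combination, 65.4 in BETp, 24.4 in mTORi and 85.5 in vehicle, and its departure there was -0.0005, so that both folds multiplied almost exactly. With a 95% interval of -1.62 to 1.59 for the mean, which includes the SNU1079 values near 0 TPM, the data do not show additivity of PHGDH across lines.

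Within SGOC, CTH, which makes cysteine from cystathionine (chr1:70876901-70905534), lay above additivity in both lines. It was at 3.4 TPM in the combination, 3.04 in BETp, 1.86 in mTORi and 3.07 in vehicle in SNU1079. SSP25 had 18.3 TPM in the combination, 35.2 in BETp, 13.5 in mTORi and 45.1 in vehicle. In each line mTORi alone was the lowest library and the combination was above it, for departures of 0.63 and 0.76 (mean 0.70 ± 0.47, 95% interval -0.41 to 1.80, adjusted p = 1 by limma). Serine hydroxymethyltransferase SHMT1 lay below at -0.47 and -0.32, as did the folate-dependent thymidylate synthase TYMS at -0.86 and -0.15, which is also on the replication list.

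Among transcripts of the drug targets, BRD2 departed by -0.15 and 0.24, BRD3 by -0.26 and 0.55, MTOR by -0.12 and 0.02 and CRBN, the cereblon receptor through which ARV825 acts, by 0.24 and -0.19. These are transcripts, and ARV825 removes BET protein. MYC was at 124 TPM in the combination, 98 in BETp, 149 in mTORi and 121 in vehicle in SNU1079. In SSP25 it was at 43.8 TPM in the combination, 31.6 in BETp, 44.3 in mTORi and 41.8 in vehicle, for departures of 0.04 and 0.38. ATF4, the stress factor that drives serine synthesis genes, departed by -0.01 in each line, and the ribosomal protein RPS6 by 0.07 and 0.09.

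**Figure D4:**
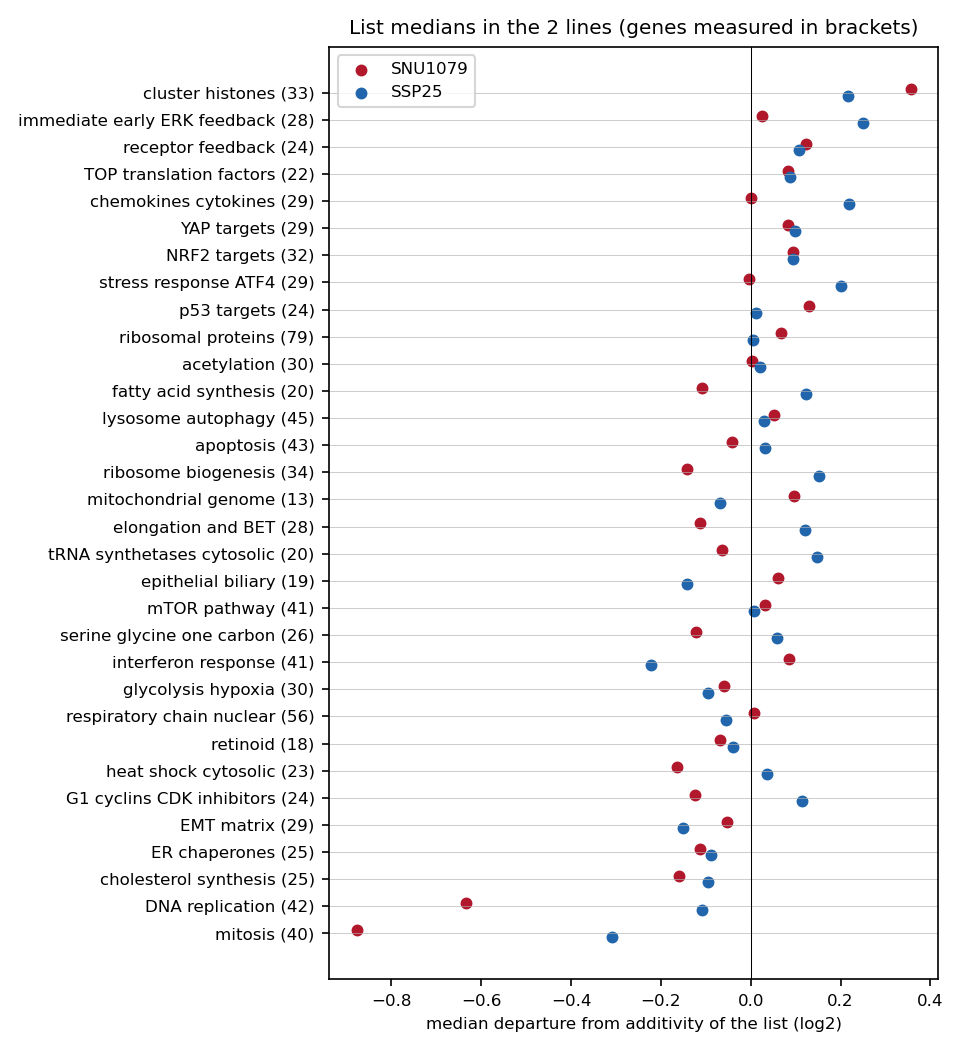
Median departure from additivity (x axis, log2) of each list with at least 10 measured genes, by line. The mitosis list lies furthest to the left in both lines (-0.88 and -0.31) and cluster histones furthest to the right in SNU1079 (0.36), while most other lists lie within 0.2 of 0.

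Growth factor receptors, their adaptors, FOXO factors and FOXO targets are under feedback from the mTOR pathway. Of 24 genes on this list 13 lay above 0 in both lines and 0 below (1 below with a pseudocount of 0.1 or quantile normalization), with medians of 0.12 and 0.11. Their medians against vehicle were -0.16 with the combination, -0.13 with BETp and -0.18 with mTORi in SNU1079. In SSP25 they were -0.15 with the combination, -0.10 with BETp and -0.10 with mTORi. The median of the fitted departure, 0.12, was 0.08 without SNU1079 vehicle and 0.21 without SSP25 vehicle. The growth factor receptor IGF1R (chr15:99191768-99507759) was at 12.2 TPM in the combination, 9.56 in BETp, 9.41 in mTORi and 10.8 in vehicle in SNU1079. SSP25 libraries held 5.93 TPM in the combination, 5.78 in BETp, 4.33 in mTORi and 6.72 in vehicle. Each drug alone was under vehicle in both lines, and the combination was above either drug, for departures of 0.50 and 0.57 (mean 0.53 ± 0.23, 95% interval -0.01 to 1.08, adjusted p = 1 by limma).

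Of 28 immediate-early genes 12 lay above 0 in both lines and 1 below, with medians of 0.03 and 0.25, led by ATF3 at 0.47 and 0.84. Of 29 YAP targets 15 lay above and 3 below (medians 0.08 and 0.10), and of 79 ribosomal protein genes 35 lay above and 5 below (0.07 and 0.01). The ribosomal protein median of the fitted departure, 0.04, ran from -0.01 without SNU1079 BETp to 0.08 without SSP25 BETp, so its side was not settled. The immediate-early median, 0.14, was 0.06 without SSP25 mTORi, 0.07 without the SSP25 combination, 0.23 without the SNU1079 combination and 0.26 without SNU1079 mTORi. The YAP median, 0.10, was 0.05 without SSP25 BETp or SSP25 vehicle, 0.17 without SNU1079 BETp or SSP25 mTORi (0.173 and 0.175) and 0.19 without SNU1079 vehicle. On the other side, 13 of 25 cholesterol synthesis genes lay below 0 in both lines and 2 above (medians -0.16 and -0.10), among them INSIG1 at -0.50 and -0.25. The cholesterol median, -0.11, was -0.04 without the SNU1079 combination (14 of 25 below 0) and -0.25 without SSP25 BETp.

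Of 43 apoptosis genes, 10 lay above 0 in both lines and 12 below, with medians of -0.04 and 0.03. Both counts lie near the shares over all genes, which were 22.6% above and 25.2% below. XIAP, an inhibitor of caspases, was at 18.9 TPM in the combination, 12.5 in BETp, 14.9 in mTORi and 15.1 in vehicle in SNU1079. The level in SSP25 was 28.9 TPM in the combination, 26.6 in BETp, 25.8 in mTORi and 32.3 in vehicle, and the departures were 0.57 and 0.43. FADD, the adaptor of death receptors, departed by -0.36 and -0.51 (mean -0.44, 95% interval -0.86 to -0.01, adjusted p = 1 by limma).

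The 24 protein-coding genes of largest shared departure, 12 in each direction, were often gene models whose reads cannot be assigned with certainty. SMIM11A led the genes above additivity at 1.16 and 2.98, yet its near-identical copy SMIM11B departed by 1.63 and -4.10, and the sum of both by -0.14 and -0.03. In SSP25 the single-drug changes of SMIM11A added up to below 0 TPM, so its departure there could only be positive. LUZP6, which lies within the MTPN transcript, departed by -4.36 and -1.74 (mean -3.05 ± 1.48, 95% interval -6.54 to 0.45), and its sum with MTPN by -0.48 and -0.45. The read-through gene SYNJ2BP-COX16 departed by -2.44 and -1.03 (95% interval of the mean -2.70 to -0.77), and by -0.40 and -0.11 with SYNJ2BP and COX16 added. PIGY (0.86 and 1.23) departed by 0.09 and 0.75 with PYURF, and INO80B-WBP1 (0.97 and 0.69) by 0.17 and -0.21 with INO80B and WBP1. These sums were taken after the values had been seen.

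CBWD3 (0.80 and 0.81), GTF2IRD2 (1.62 and 0.72), NPIPB3 (0.61 and 0.88) and SULT1A4 (-0.79 and -0.84) also belong to families of near-identical copies. CBWD3 with CBWD5 departed by -0.06 and 0.46. SULT1A4 with SULT1A3 departed by -0.50 and -0.04, and NPIPB3 with NPIPB4 and NPIPB5 by 0.47 and 0.31. SAA1, serum amyloid A, was at 2944 TPM in the combination, 1540 in BETp, 1791 in mTORi and 1523 in vehicle in SSP25. It was under 2.4 TPM throughout SNU1079, where its departure of 0.68 rests on low values, beside 0.70 in SSP25. The single-drug changes of SAA1 in SNU1079 added up to below 0 TPM, so its departure there could only be positive.

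The remaining genes of the 24 were not summed with a copy. AL109927.1, a short gene model (chr1:28177085-28177255, minus strand), was at 15 TPM in the combination, 10.7 in BETp, 30.9 in mTORi and 3.19 in vehicle in SNU1079. In SSP25 it was at 32.1 TPM in the combination, 25.9 in BETp, 51.2 in mTORi and 11.2 in vehicle. The 4 libraries had the same order in both lines, each drug lay over vehicle, and the combination lay under mTORi, for departures of -2.48 and -1.80 (mean -2.14 ± 0.28, 95% interval -2.80 to -1.48, adjusted p = 0.636 by limma). Its additive level, 87.9 TPM in SNU1079 and 114 TPM in SSP25, rests on the low vehicle values.

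HERC1, a giant ubiquitin ligase (chr15:63900817-64126147), was at 5.32 TPM in the combination, 10.6 in BETp, 6.2 in mTORi and 6.33 in vehicle in SNU1079. The level in SSP25 was 5.21 TPM in the combination, 13.2 in BETp, 8.47 in mTORi and 11.7 in vehicle. BETp alone was the highest library and the combination the lowest in each line (departures -0.85 and -0.78, mean -0.81 ± 0.29). EXOC6, an exocyst subunit, departed by -0.97 and -0.73, the ciliary gene CC2D2A by -0.80 and -0.93, the collagen gene COL16A1 by -1.05 and -0.70, IFI27L2 by -1.16 and -0.72 and the zinc finger gene ZNF250 by -0.68 and -0.80. Above additivity were ATXN7L1 (0.70 and 0.68), the endosomal adaptor RUFY3 (0.61 and 0.70), the histone gene HIST1H2BJ (1.39 and 0.71) and CTC-487M23.8 (0.68 and 1.73).

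Promoters of 13 of these 24 genes were matched by symbol, 5 above and 8 below additivity. TGACNNNGC, an NRF2 motif, was in RUFY3 and HERC1 (13.6% of all promoters hold it), TGANTCA, an AP-1 motif, in INO80B-WBP1 (7.76%), an NF-kB motif in INO80B-WBP1, RUFY3 and IFI27L2 (25.1%), and an interferon response motif in SYNJ2BP-COX16 (3.65%). TGATGNAA, TCACNCCAC and CACGTG, motifs of ATF4, SREBP and E-box factors, were in 0 of the 13 and in 3.67%, 1.15% and 7.43% of all promoters. All were searched on both strands.

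Composition moved with treatment. Transcripts of the mitochondrial genome summed to 173356 TPM in the combination, 153587 in BETp, 139153 in mTORi and 130039 in vehicle in SNU1079. In SSP25 they summed to 94821 TPM in the combination, 67775 in BETp, 80788 in mTORi and 56195 in vehicle, so the combination was highest in both lines. With the mitochondrial, ribosomal protein and ferritin genes removed and the libraries rescaled, the mitosis median was -0.59 and 39 of 40 genes still lay below 0 in both lines. After that rescaling the replication median was -0.33 with 26 of 42 genes below 0 in both lines, the histone median was 0.35 with 14 of 33 above, and 9 of 25 cholesterol synthesis genes lay below 0 in both lines. The 13 mitochondrial genes themselves had median departures of 0.10 and -0.07.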

How the data were processed

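RNA was sequenced from 8 cultures, 4 treatments in each of 2 CCA lines, with strand-specific libraries. Tables of TPM were deposited by the authors, 1 for each line, with 56269 genes in each. Per the labels the genome build was GRCh37, and the processing notes of the submitters list the packages DESeq2 and edgeR. Which aligner and which annotation were used is not given in the sources used here. Library totals in TPM ran from 998559 to 999362, and no 2 libraries were identical.

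Columns were matched to treatments by the sample titles. Values were taken as log2(TPM + 1), which understates changes of low genes. A gene was kept if 2 or more libraries had it at 1 TPM or above. The contrast of the combination minus BETp minus mTORi plus vehicle was fitted on all 8 libraries in limma 3.58.1 (R 4.3.3), with treatment and cell line as terms, 3 residual degrees of freedom and eBayes with an intensity trend. Cell line was the block, since the labels give same-numbered libraries the same line. The lowest correlation of their deviations from treatment means was 0.911. Lasting differences between the 2 lines give such values by themselves, so this is no test of the block. Tests were two-sided, adjusted by Benjamini-Hochberg over 16060 genes, with calls at 0.05, and the fit was tested on simulated data. Lines were also compared by each line's own departure, which has no replicate. Because vehicle enters the departure with the opposite sign from the single-drug changes, no relation between these was tested. The additive level is the vehicle level plus both single-drug log2 changes, returned to TPM.

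The 37 gene lists, written from general knowledge, the contrast and the rules were chosen with earlier results of these data known. Genes named were those of largest shared departure (12 each way, mean at least 5 TPM, protein-coding), the 3 of largest opposite departures each way, 11 genes of the study and its drug targets, and up to 3 members of each list each way, apart from genes said to be chosen later. Some genes that these rules name are not reported here. CTD-2224J9.4 was named for its smallest adjusted p, and genes beside the 0.5 limit for their rank. Positions are those of GENCODE 44 on GRCh37 by symbol. Promoters are those of RefSeq on GRCh38.p14.

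Alternatives were pseudocounts of 0.1 and 5 TPM, quantile normalization, a filter at 5 TPM or none, rescaling without mitochondrial, ribosomal protein and ferritin genes, robust eBayes without trend, no cell line block, per-line departures alone, each library left out, additivity on the TPM scale and comparison with the stronger single drug. Sums of overlapping genes, 2 promoter motifs and list medians with libraries left out were added after the data had been seen.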

Additional observations from a re-analysis of the deposited data

Results flagged for a closer look

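Genes below departed in opposite directions in the 2 lines, as did the medians of some lists. The difference between lines is given as SNU1079 minus SSP25, and with 1 library per treatment and line it was not tested. By the smaller of the 2 departures, the genes furthest above additivity in SNU1079 and below it in SSP25 were SMIM11B (difference 5.73), AC002398.9 (3.61) and HIST2H2AA4 (2.42). Those furthest below in SNU1079 and above in SSP25 were a gene model known only by a clone name (-6.97), SLX1B (-3.46) and IGFLR1 (-2.43).

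Several of these are unsettled gene models. SLX1B departed by -2.42 and 1.04, and its sum with the copy SLX1A by -0.03 and -0.33. The clone-named model was listed at 8.69 TPM in the SNU1079 combination, 19.5 in BETp, 21.6 in mTORi and 0 in vehicle.

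Among lists of at least 10 measured genes, 4 had medians of at least 0.1 in size on opposite sides of 0, all below additivity in SNU1079 and above it in SSP25. They were ribosome biogenesis (difference -0.29; 29 of 34 genes had opposite signs), G1 cyclins and CDK inhibitors (-0.24; 13 of 24), elongation and BET genes (-0.23; 20 of 28) and fatty acid synthesis (-0.23; 7 of 20). Over all genes 48.1% had opposite signs, so that the counts of the cyclin list (13 of 24) and of fatty acid synthesis lie near or below that share.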

How the results depend on the processing

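The counts of shared departures turned on how low values were treated. The median of the mitosis list ran from -0.63 to -0.50 over the alternatives that kept all 8 libraries. With a pseudocount of 0.1 there were 150 genes above and 169 below at 1, and 421 above and 486 below at 0.5. With a pseudocount of 5 these were 5, 7, 29 and 27. With a filter at 5 TPM they were 8, 10, 78 and 93, with fewer genes tested, and after rescaling 63 above and 58 below at 1, where the cause was not tested. Of the classes, genes past the sum numbered 12 with the pseudocount of 0.1. With 5 there were 5 where the mean of each drug was within 0.25 of vehicle, 2 past the sum, 19 short of it and 7 with opposed drugs.

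Calls above additivity numbered 1 with the pseudocount of 5 (CTD-2224J9.4, adjusted p = 0.0213), 1 with robust eBayes without trend (CTD-2224J9.4, adjusted p = 0.0125), and 0 to 1 as each library was left out (CTD-2545G14.4 without the SSP25 combination, adjusted p = 0.0341, and TMSB4XP6 without SSP25 mTORi, adjusted p = 0.00885). Calls below numbered 0 to 1 (TUG1_1 without SSP25 BETp, adjusted p = 0.0336), all by limma. Without the cell line block 0 genes were called each way and 15 above and 16 below had an unadjusted p under 0.05, and no call was changed by the block.

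PIGY, at 1.05, became -0.24 on the TPM scale and -0.21 against the stronger single drug, and ran from -0.12 (without SSP25 BETp) to 2.21 as libraries were left out. SAA1 ran from -0.001 (without the SSP25 combination) to 1.39. SMIM11B, at -1.24, became 1.23 against the stronger single drug and ran from -3.78 to 1.30, being above 0 without SSP25 mTORi or SSP25 vehicle. SLX1B, at -0.69, became 0.47 with a pseudocount of 0.1 and ran from -1.50 to 0.11 (without the SNU1079 combination).

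Library depth is unknown, and with 1 library per line and treatment a departure within a line cannot be told apart from a difference between single cultures.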
